A study of Mus musculus with 6 samples.

Results

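The extracellular metalloproteases of the tumors and their direct inhibitors were described here: the matrix metalloproteases (MMPs), the tissue inhibitors of metalloproteases (TIMPs), the membrane-bound ADAMs, the secreted ADAMTS proteases and the ADAMTS-like proteins. Members were taken by symbol alone, as every gene whose symbol begins with Mmp, Timp or Adam followed by a number, or with Adamts. This gave 52 of the 13730 genes in the table, namely 16 Mmp, 3 Timp, 11 Adam, 17 Adamts and 5 Adamtsl genes, with 84 transcripts in all. Of these, 43 had enough counts to be tested, as did 10902 of all genes. The mouse RefSeq annotation lists 85 protein-coding symbols of this kind, and the members outside the 52, such as Mmp7, Mmp28 and Timp4, were not analysed here.

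The RNA came from 6 tumors grown from C0321 cells, a triple-negative breast cancer (TNBC) line that is 1 transplantable clone with mesenchymal, claudin-low features, derived from a Lfng-/- mouse on the FVB strain. All 6 tumors therefore carried the same cells, injected with Matrigel into the mammary fat pad of female FVB mice aged 6 to 10 weeks, with the host's own immune and stromal cells present. The 3 SS mice received the drug by mouth at 60 mg/kg each day for 14 days from the time a mass could be felt. The labels name the drug Sulindac Sulfate and the study's text sulindac sulfide, a gamma-secretase modulator (gamma-secretase makes the final cut in Notch receptors). The 3 Control mice received saline by the series text and vehicle by the study's methods. The labels list the tumors as separate samples, and p-values weigh the difference between groups against the spread between these tumors. Whether the tumors were collected in batches is not given, so a batch that ran with treatment could not be told apart from it.

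Metalloproteases of these families use a zinc ion to cut proteins outside the cell. MMPs degrade collagens and other matrix proteins and are held in check by TIMPs, while ADAMs mostly release the outer parts of membrane proteins, including growth factors, cytokines and Notch receptors. ADAMTS proteases trim procollagens, proteoglycans and other matrix components, and ADAMTS-like proteins resemble them without the protease domain. In breast tumors much of this RNA is known to come from fibroblasts and macrophages as well as from cancer cells. In bulk RNA, fewer cells of a type and less RNA per cell cannot be told apart.

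Totals ranged from 8468914 to 24441522 estimated counts per tumor, so that the floor of 3 counts stood at 0.123 to 0.358 CPM (counts scaled to a common library total). The hormone receptor genes were low, with Esr1 between 4.48 and 6.40 CPM, while the keratin gene Krt8 was at 417 to 544 CPM and the epithelial adhesion gene Epcam at 0.04 to 2.98 CPM. Krt18, the partner of Krt8, was at 91.8, 98.1 and 80.4 CPM in Control and 70.0, 59.5 and 61.9 CPM in SS. All SS values of Krt18 were below Control, as for 6.4% of all genes. The log2 fold change of Krt18 was -0.50 (SE 0.12), with an adjusted p of 0.760 by edgeR's quasi-likelihood test. Of the 6 epithelial markers tested, 2 had a log2 fold change above 0 and 4 below. Only Krt18 had an unadjusted p under 0.05. Those above 0 were Epcam, at a mean of 0.36 CPM in Control and 1.57 CPM in SS, and Cdh1 (0.41, SE 0.44). The groups overlapped for both. The log2 fold change of Krt8 was -0.10 (SE 0.12). Lfng itself was at 4.65 to 6.40 CPM in the 6 tumors. Skeletal muscle markers (Acta1, Ckm, Myh4 and Tnnt3) summed to between 282 CPM in SS 1 and 17814 CPM in SS 2, and fibroblast markers were lowest in SS 1, at 9112 CPM. The part of these differences in the results was not tested.

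Of the 16 Mmp members, 6 lie in a row on chromosome 9 between positions 7272514 and 7581885 of mm10, all on the plus strand and within 309 kb. They are Mmp13, Mmp12, Mmp3, Mmp10, Mmp8 and Mmp27, which include collagenases, stromelysins and the macrophage elastase. The promoters of 4 of the 6 hold TGANTCA, with any base at N, a pattern that reads alike on both strands. It covers TGACTCA and TGAGTCA, the forms of the core bound by AP-1 factors. The 4 stretches are shown because these neighbours hold this element close to the start. Each runs over the 150 bases up to the start on the plus strand of GRCm38.p6, from RefSeq, with the match in capitals, at chr9:7272364-7272513, chr9:7347224-7347373, chr9:7445672-7445821 and chr9:7502192-7502341.
Mmp13: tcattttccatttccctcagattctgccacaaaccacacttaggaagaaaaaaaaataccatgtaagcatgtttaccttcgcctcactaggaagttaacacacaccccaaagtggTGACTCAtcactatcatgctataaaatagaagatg
Mmp12: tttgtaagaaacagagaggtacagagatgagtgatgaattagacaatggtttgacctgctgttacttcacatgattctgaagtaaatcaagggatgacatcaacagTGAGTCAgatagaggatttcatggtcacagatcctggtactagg
Mmp3: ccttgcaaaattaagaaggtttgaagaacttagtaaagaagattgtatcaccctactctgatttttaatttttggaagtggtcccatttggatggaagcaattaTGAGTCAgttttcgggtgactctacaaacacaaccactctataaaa
Mmp10: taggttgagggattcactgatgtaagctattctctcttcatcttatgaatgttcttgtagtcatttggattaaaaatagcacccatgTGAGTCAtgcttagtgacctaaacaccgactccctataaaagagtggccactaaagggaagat

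The first base of the match lay 35 bases before the start in Mmp13, 44 in Mmp12, 46 in Mmp3 and 63 in Mmp10. Mmp8 and Mmp27 held no match in the 250 bases searched before the start. RefSeq gave promoters for 34 of the 52 members, and the only other member with a match was Adam19, at 131 bases. Over all 32851 promoters of the same length, 6.75% held TGANTCA with any base at N. This is a looser pattern than the TGACTCA or TGAGTCA found in the members. A match describes these letters and does not show binding.

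Members covered a wide range of levels. By mean CPM, 4 members were at 100 or more (Adam10, Mmp14, Timp2 and Mmp2), 19 lay between 10 and 100, 15 between 1 and 10, and 14 under 1. Levels per kilobase of transcript take length into account, and genes were compared on them as listed. Mmp14 was at 168.6 CPM/kb, Adam10 at 159.6, Timp2 at 116 and Mmp2 at 54.0. These carried 25.9%, 24.5%, 17.7% and 8.27% of the summed CPM/kb of the 52 members. Mmp14 ranged from 157 to 195 CPM/kb over the tumors and Adam10 from 143 to 185, so their order did not exceed their spread. Timp2 lay at 106 to 128 CPM/kb, below every Mmp14 and Adam10 value, and Mmp2 at 25.0 to 87.8, below every Timp2 value. The next members were Adam15 at 17.7 to 21.5 CPM/kb, Adam17 at 13.0 to 15.1, Adamts6 at 12.4 to 16.3 and Mmp13 at 4.87 to 17.9. Adam15 lay above Adam17 and Adamts6 in every tumor, while the last 3 overlapped.

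**Figure D1:**
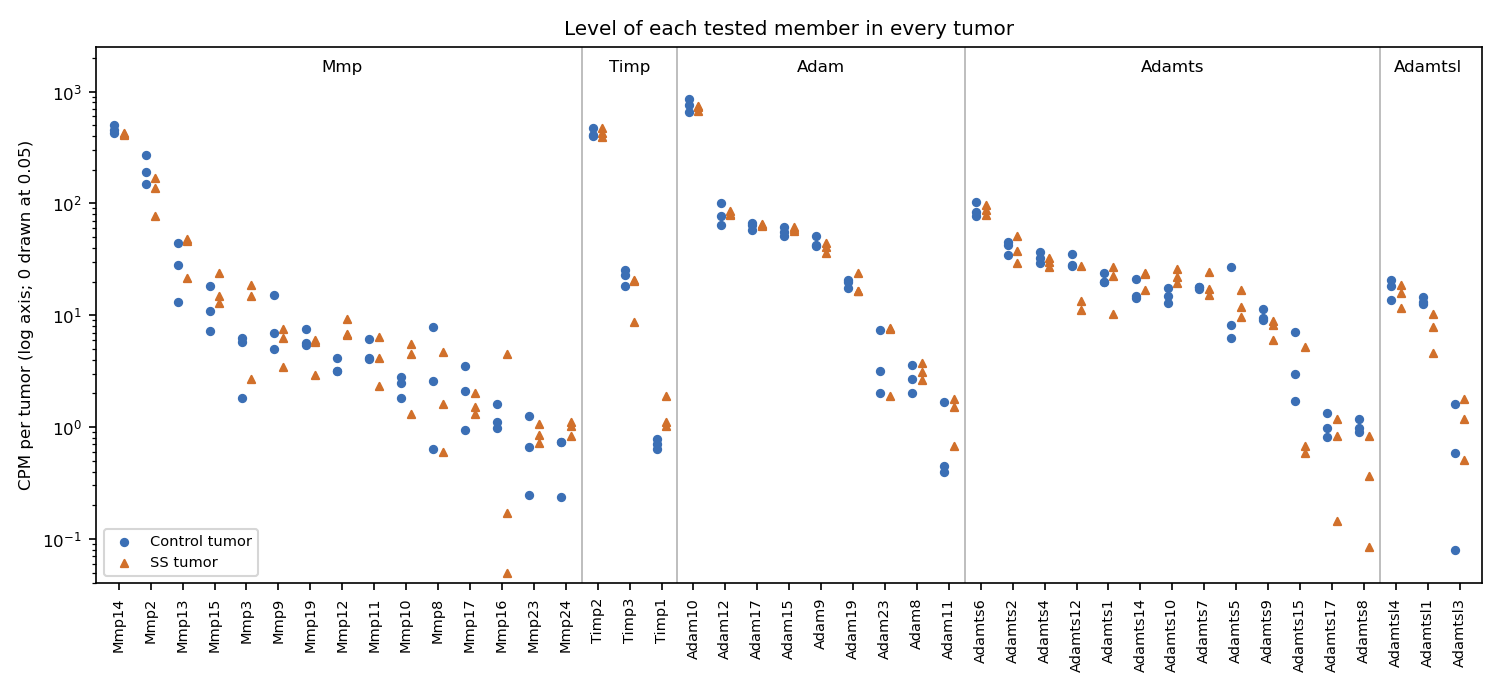
CPM of each of the 43 tested members in every tumor, on a log axis, with 1 point per tumor (Control circles, SS triangles) and a value of 0 drawn at 0.05. Adam10, Mmp14, Timp2 and Mmp2 stand at the top, and the spread between tumors widens toward the low members.

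The comparison of SS with Control asks how the drug altered these genes. No member passed adjustment by edgeR's quasi-likelihood test, as no gene of all 10902 did (0% called), and the smallest adjusted p of a member was 0.760. At an unadjusted p under 0.05, 4 members were called, 2 higher in SS (Mmp12 and Adamts10) and 2 lower (Adamts12 and Adamtsl1), which is 9.30% of the members against 6.36% of all genes (3.19% higher and 3.16% lower). DESeq2 called 36 of all genes after adjustment and none of the 24 members to which it gave an adjusted p. The SS and Control values did not overlap for 7 members, 4 above and 3 below, or 16.3% against 12.9% of all genes (6.51% above and 6.4% below). Log2 fold changes were above 0 for 20 members and below 0 for 23, with a median of -0.042 beside -0.0014 for all genes, of which 50.2% were below 0. The median of the members was 0.018 without Control 3, 0.052 without SS 1 and -0.14 without SS 2, so its sign rested on single tumors.

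**Figure D2:**
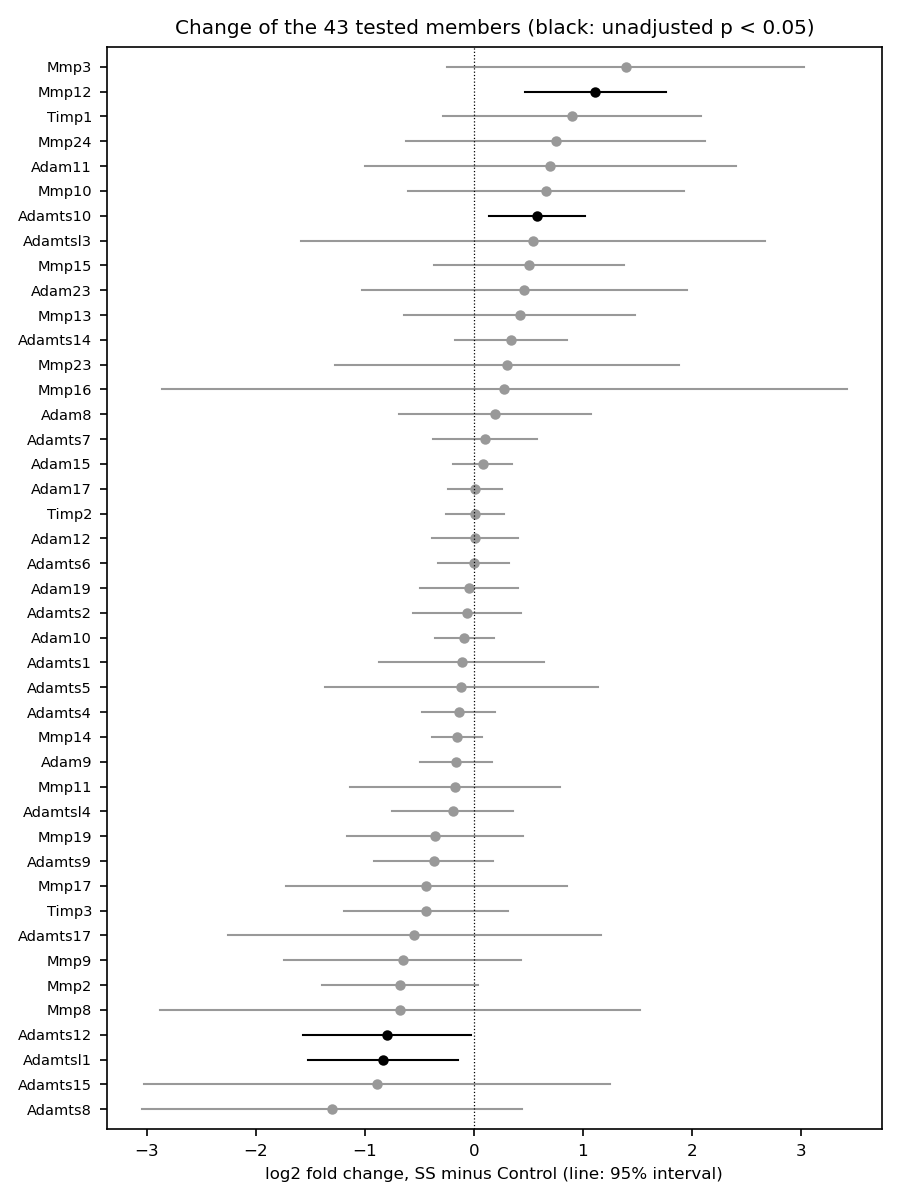
Log2 fold change of SS against Control for the 43 tested members, with 95% intervals as lines and the 4 members at an unadjusted p under 0.05 in black. Intervals are narrow for the abundant members such as Mmp14, Timp2 and Adam10 and wide for the low ones.

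Among the matrix metalloproteases, 15 of 16 were tested, 8 with a log2 fold change above 0 and 7 below, and the median was 0.28. Their summed level averaged 745 CPM in Control (SD 119, n = 3) against 644 CPM in SS (SD 82.9, n = 3), which differed by less than the SD of the Control tumors. Only Mmp12 had an unadjusted p under 0.05, which is 6.67% of the tested Mmp genes against 6.36% of all genes.

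Mmp14, the membrane-anchored collagenase MT1-MMP that activates pro-MMP2, lies at chr14:54431598-54442456. Its level was 421, 457 and 505 CPM in Control and 407, 415 and 422 CPM in SS. The groups met at Control 1, which lay among the SS values. Its log2 fold change was -0.15 (95% interval -0.38 to 0.07), with an adjusted p of 0.845 by edgeR's quasi-likelihood test, and it was -0.08 without Control 3. Mmp2, or gelatinase A, whose proenzyme MT1-MMP cuts, was at 192, 150 and 270 CPM in Control and 77.1, 169 and 139 CPM in SS. SS 1 was the lowest and Control 3 the highest, and the groups overlapped through SS 2. For Mmp2 the log2 fold change was -0.67 with an SE of 0.31 and an adjusted p of 0.780 by edgeR.

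Fibroblasts are a known source of Mmp2, and fibroblast markers summed to 12888, 18830 and 14749 CPM in Control and to 9112, 18254 and 14844 CPM in SS. SS 1 held the lowest value of both. Collagen genes made up most of this sum, with Col1a1 alone at 7057 to 14510 CPM. Of the 6 fibroblast markers tested, 5 had a log2 fold change below 0, among them Fap at -0.62 (SE 0.27) and Pdgfra at -0.65 (SE 0.35), and none had an unadjusted p under 0.05. Without SS 1 the log2 fold change of Mmp2 was -0.41, and without Control 3 it was also -0.41. The part of fibroblast content in the Mmp2 values was not tested.

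Mmp12, the macrophage elastase, was the member with the smallest p. Its level was 3.16, 3.15 and 4.10 CPM in Control and 9.22, 6.80 and 6.59 CPM in SS. All SS tumors were above all Control tumors, and SS 1 was the highest. SS exceeded Control by a log2 fold change of 1.12 with an SE of 0.28 (95% interval 0.47 to 1.77), and the adjusted p was 0.760 by edgeR's quasi-likelihood test. It lay between 0.94 and 1.26 when any 1 tumor was left out, and Mmp12 had an unadjusted p under 0.05 in each of these 6 fits.

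Macrophage markers (7 of 7 tested, among them Adgre1, Cd68 and Csf1r) summed to 832, 966 and 1043 CPM in Control and to 1089, 866 and 1033 CPM in SS, so the groups overlapped. Csf1r at 322 to 448 CPM and Mrc1 at 299 to 446 CPM were the largest parts of this sum. Of the 7, 4 had a log2 fold change above 0 and 3 below, with a median of 0.11. None was higher in SS at an unadjusted p under 0.05, and 1, Cd14, was lower (log2 fold change -0.59, SE 0.21). Adgre1 had a log2 fold change of 0.50 (SE 0.24). The tumor with the most Mmp12, SS 1, was also the one with the highest macrophage sum, while SS 2 had the second Mmp12 value and a macrophage sum below 2 of the 3 Control tumors. The part of macrophage content in the Mmp12 values was not tested.

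**Figure D3:**
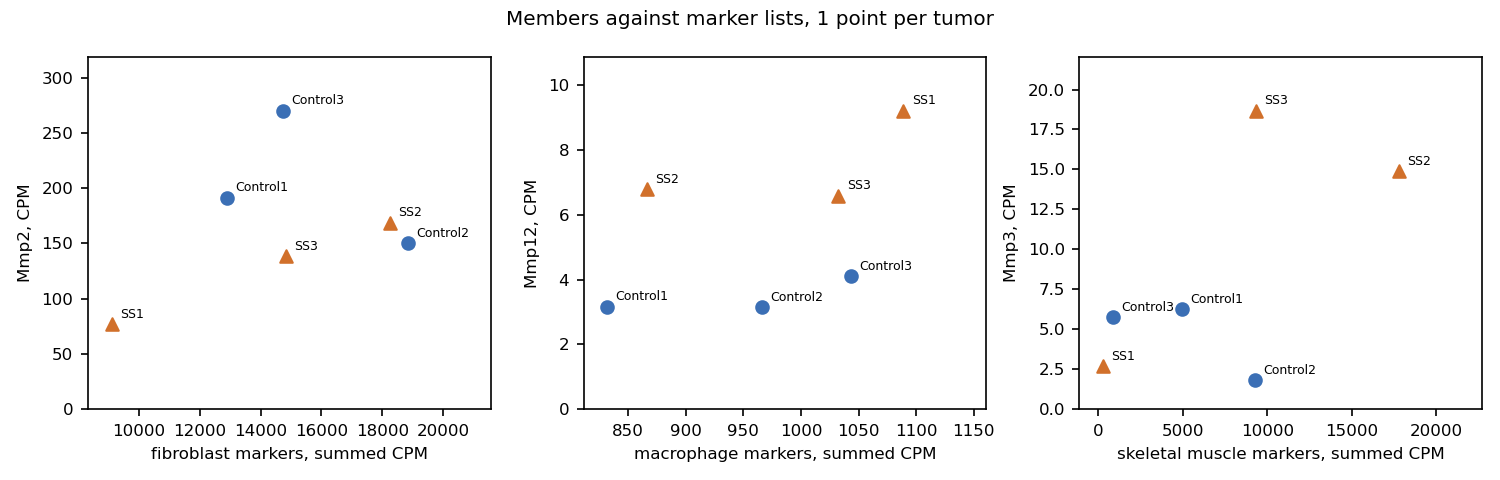
Members against the summed CPM of marker lists, with 1 point per tumor (Control and SS in separate colors). Mmp2 is set against fibroblast markers, Mmp12 against macrophage markers and Mmp3 against skeletal muscle markers, and SS 1 has the lowest fibroblast and muscle sums and the highest macrophage sum.

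The other neighbours on chromosome 9 varied widely between tumors. Mmp13, a collagenase, was at 28.2, 13.0 and 44.2 CPM in Control and 21.3, 47.8 and 45.7 CPM in SS. Mmp3, or stromelysin 1, was at 6.24, 1.82 and 5.75 CPM in Control and 2.69, 14.9 and 18.7 CPM in SS. For both genes SS 2 and SS 3 were the highest tumors and Control 2 and SS 1 the lowest, so the groups overlapped. Mean differences gave a log2 fold change of 0.42 for Mmp13 (SE 0.46) and 1.39 for Mmp3 (SE 0.71), the latter with an adjusted p of 0.792 by edgeR. Single tumors moved both, Mmp13 from 0.07 without Control 2 to 0.90 without Control 3 and Mmp3 from 0.92 without SS 3 to 1.87 without SS 1. Skeletal muscle markers summed to 4946, 9276 and 874 CPM in Control and 282, 17814 and 9310 CPM in SS, high in SS 2 and SS 3 and low in SS 1 as Mmp3 was. Control 2, however, had a muscle sum close to that of SS 3 and the least Mmp3, and Control 3 had a low muscle sum and more Mmp3 than SS 1. The part of muscle in the Mmp3 values was not tested.

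Mmp10, or stromelysin 2, was at 2.45, 1.82 and 2.79 CPM in Control and 1.31, 5.48 and 4.48 CPM in SS, with the same tumors high and low as for Mmp3. Mmp8, the neutrophil collagenase, was instead highest in Control 3, at 7.88 CPM, and lowest in SS 2, at 0.60 CPM. Mmp10 and Mmp8 were named after their values were seen, to complete the row of neighbours. Mmp12 differed from the 3 other genes with the element in that SS 1 was its highest tumor and their lowest or second lowest. The 4 neutrophil marker genes that could be read summed to 1.08 to 5.61 CPM, and their part in the Mmp8 values was not tested.

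**Figure D4:**
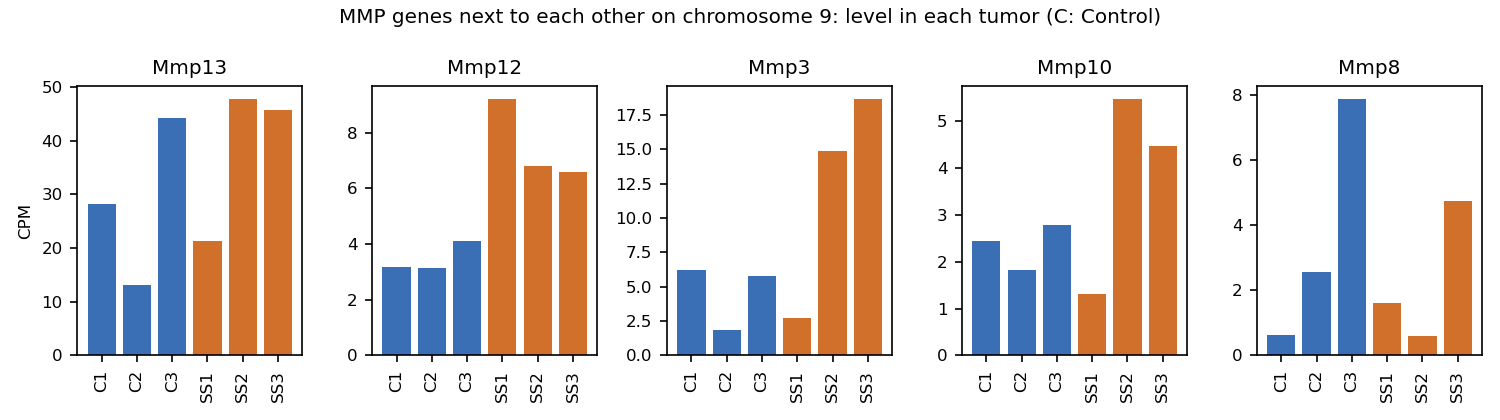
CPM of the 5 tested neighbours on chromosome 9 in each tumor (bars, Control C1 to C3 and SS1 to SS3), each on its own axis from 0. Mmp3, Mmp10 and Mmp13 are highest in SS 2 and SS 3, Mmp12 is highest in SS 1 and Mmp8 in Control 3.

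Of the remaining Mmp genes, Mmp15, Mmp16, Mmp17 and Mmp24 encode membrane-type enzymes. Mmp16 and Mmp17, given after their values were seen, had log2 fold changes of 0.28 (SE 1.35) and -0.44 (SE 0.55). Mmp15 was at 18.3, 10.9 and 7.18 CPM in Control and 14.95, 23.8 and 12.8 CPM in SS, with overlap and a log2 fold change of 0.51 (SE 0.38), which was 0.20 without SS 2, 0.24 without Control 3 and 0.92 without Control 1. Mmp24 was at 0.24, 0.74 and 0.74 CPM in Control and 1.02, 0.83 and 1.10 CPM in SS. All SS values lay above Control, with Control 1 at the level of 3 counts, and the log2 fold change was 0.75 with an SE of 0.59.

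The TIMPs block the active site of MMPs, and Timp3 also that of several ADAMs and ADAMTS proteases. Timp2, which also helps MT1-MMP to activate pro-MMP2, was at 405, 399 and 476 CPM in Control and 392, 425 and 475 CPM in SS. The groups overlapped fully, and the log2 fold change was 0.01 with a 95% interval of -0.25 to 0.28. Timp3 was at 23.0, 18.1 and 25.6 CPM in Control and 20.0, 20.5 and 8.70 CPM in SS. SS 3 was the one low tumor, and the log2 fold change was -0.44 (SE 0.32).

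Timp1, an inhibitor of secreted MMPs, was listed at 0.63, 0.79 and 0.70 CPM in Control and 1.02, 1.91 and 1.10 CPM in SS. All SS values were above all Control values, and the log2 fold change was 0.90 with an SE of 0.51 and an adjusted p of 0.813 by edgeR. The same table lists B2m, a gene of nearly every cell, at 1.66 to 3.85 CPM in the 6 tumors. The ribosomal protein gene Rps29 is listed at 1.26 to 3.99 CPM. The Timp1 listing was therefore not taken as its level in the tumor. Whether other genes are listed low in the same way was not tested, which also limits the order of members by level.

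Among the ADAMs, 9 of 11 were tested and none had an unadjusted p under 0.05 (6.36% of all genes) or groups apart (12.9% of all genes). Adam10, which cuts ligand-bound Notch receptors before gamma-secretase does, was at 655, 761 and 850 CPM in Control and 735, 671 and 726 CPM in SS. The SS values lay inside the Control range. Its log2 fold change was -0.09 with a 95% interval of -0.36 to 0.18. Adam17, the TNF-converting enzyme, had the smallest ratio of highest to lowest tumor among the tested members when its transcripts were summed, at 1.16. It was at 57.8, 67.3 and 64.5 CPM in Control and 62.3, 65.6 and 63.7 CPM in SS, with a log2 fold change of 0.01 (SE 0.11). Its protein-coding transcripts alone varied more, from 24.5 to 53.2 CPM, and gave a log2 fold change of 0.29 (SE 0.30).

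The 3 other ADAMs among the 5 with the highest mean CPM also had overlapping groups. Adam15, with a disintegrin domain that binds integrins, was at 51.0, 55.0 and 62.1 CPM in Control and 58.9, 62.0 and 57.0 CPM in SS. Adam12, which is expressed in mesenchymal cells, was at 77.2, 102 and 64.1 CPM in Control and 80.8, 79.2 and 84.8 CPM in SS. Adam9, another membrane sheddase, was at 42.1, 41.9 and 51.5 CPM in Control and 36.1, 44.5 and 40.7 CPM in SS. The log2 fold changes of these 3 were 0.08, 0.01 and -0.16 in that order. Adam15 was at 0.02 without Control 1 and 0.16 without Control 3, and Adam9 at -0.05 without Control 3.

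Of the 17 Adamts members, 13 were tested, 3 with a log2 fold change above 0 and 10 below, or 76.9% below 0 against 50.2% of all genes. At an unadjusted p under 0.05 there was 1 in each direction, or 15.4% against 6.36% of all genes. Among the most abundant, Adamts6 was at 83.0, 77.4 and 102 CPM in Control and 87.5, 96.7 and 78.7 CPM in SS. Adamts2, a procollagen N-propeptidase, was at 45.1, 42.7 and 34.8 CPM in Control and 29.2, 50.8 and 37.4 CPM in SS. Neither gene separated the groups. The proteoglycan-cutting Adamts4 was at 29.2, 36.4 and 32.4 CPM in Control and 32.2, 29.8 and 27.1 CPM in SS. Adamts1, also a proteoglycanase, was at 19.9, 19.9 and 23.97 CPM in Control and 10.2, 26.7 and 22.4 CPM in SS, with SS 1 low. The groups overlapped for these as well.

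Adamts12, which cuts cartilage oligomeric matrix protein and lies at chr15:11064773-11349232, was at 27.7, 28.3 and 34.9 CPM in Control and 11.2, 13.5 and 27.7 CPM in SS. SS 1 and SS 2 were below every Control tumor, while SS 3 met the lowest Control value. The log2 fold change was -0.79 with an SE of 0.33 and an adjusted p of 0.771 by edgeR's quasi-likelihood test. Leaving out 1 tumor at a time gave values from -1.30 without SS 3 to -0.55 without SS 1, and the unadjusted p stayed under 0.05 in 1 of these 6 fits, the one without SS 3.

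Adamts10, linked to fibrillin microfibrils and lying at chr17:33524085-33553782, was at 14.7, 17.4 and 12.8 CPM in Control and 19.4, 21.8 and 25.9 CPM in SS. All SS tumors were above all Control tumors. The log2 fold change was 0.58 with an SE of 0.19 (95% interval 0.14 to 1.02) and an adjusted p of 0.771 by edgeR's quasi-likelihood test. The unadjusted p stayed under 0.05 in 4 of the 6 fits that left out 1 tumor, and was lost without Control 3 (log2 fold change 0.48) and without SS 3 (0.46).

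The table divides Adamts10 among 10 RefSeq transcripts, 7 protein-coding and 3 non-coding. The protein-coding transcripts summed to 7.32, 13.8 and 10.99 CPM in Control and 8.11, 6.67 and 9.78 CPM in SS, with overlap and an exact permutation p of 0.3. The non-coding transcripts summed to 7.36, 3.64 and 1.77 CPM in Control and 11.3, 15.1 and 16.2 CPM in SS, where all SS values were above Control and the exact permutation p, two-sided, was 0.1, the smallest that 3 against 3 tumors can give. With protein-coding transcripts alone, the log2 fold change of the gene was -0.39 (SE 0.28) and its adjusted p 0.863 by edgeR, the opposite sign. The SS values lay above Control for the non-coding sum and not for the protein-coding sum, and the split between transcripts is an estimate made by the authors' counting.

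**Figure D5:**
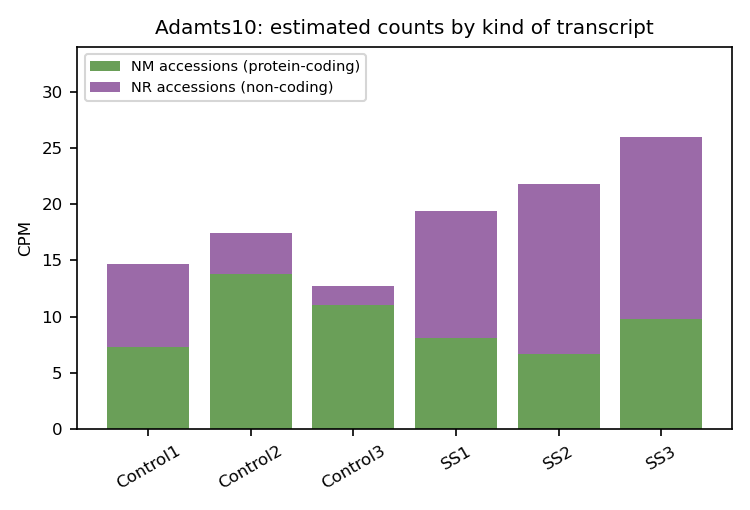
Adamts10 CPM in each tumor, stacked by protein-coding and non-coding RefSeq transcripts. The non-coding part is 1.77 to 7.36 CPM in Control and 11.3 to 16.2 CPM in SS, while the protein-coding part overlaps.

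Groups did not overlap for 3 of the 13 tested Adamts members, or 23.1% against 12.9% of all genes, and both members beside Adamts10 were lower in SS (6.4% of all genes). Adamts9, a proteoglycanase, was at 9.01, 11.5 and 9.40 CPM in Control and 6.02, 8.23 and 8.96 CPM in SS, with a log2 fold change of -0.37 (SE 0.23). Adamts8 was at 1.19, 0.98 and 0.90 CPM in Control and 0.36, 0.83 and 0.085 CPM in SS, with a log2 fold change of -1.30 (SE 0.75) that was -2.13 without SS 2 and -0.80 without SS 3. The SS 3 value of Adamts8 rested on 1 count.

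Of the Adamtsl members, 3 of 5 were tested. Adamtsl1, at chr4:86053915-86428382, was at 12.6, 13.0 and 14.6 CPM in Control and 4.57, 7.87 and 10.2 CPM in SS. All SS tumors were below all Control tumors, and SS 1 was the lowest. The log2 fold change was -0.83 with an SE of 0.30 (95% interval -1.52 to -0.15) and an adjusted p of 0.771 by edgeR's quasi-likelihood test. It ranged from -1.12 without SS 3 to -0.57 without SS 1, and the unadjusted p was lost only without Control 3 (-0.77), in 1 of these 6 fits. Adamtsl4 was at 13.7, 20.6 and 18.1 CPM in Control and 11.5, 18.7 and 15.7 CPM in SS, with overlap. Adamtsl3 was at 0.08 to 1.79 CPM, with the lowest value resting on 1 count, and its log2 fold change of 0.54 (SE 0.92) was 0.05 without Control 1 and 1.68 without Control 3.

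Variation between tumors differed by member. The highest tumor was at most 1.5 times the lowest for 9 of the 43 tested members and over 4 times for 14, including Mmp16, which was at 0 in SS 1 and at 4.53 CPM in SS 2. Mmp16 was named after its values were seen. SS 1 held the lowest value for 18 members and SS 2 the highest for 13. The 9 members not tested (Mmp27, Adam21, Adam22, Adamts3, Adamts16, Adamts18, Adamts19, Adamtsl2 and Adamtsl5) had between 10 and 61 counts summed over the 6 tumors.

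Genes that act with these proteases were read by list. Of the 8 tested partners of ADAM10 and ADAM17, 1 was higher in SS at an unadjusted p under 0.05. This was Rhbdf1, or iRhom1, which carries ADAM17 to the cell surface, at 24.03, 29.1 and 26.4 CPM in Control and 34.3, 34.2 and 31.0 CPM in SS, with a log2 fold change of 0.32 (SE 0.14). All SS values were above Control. The median of the list was 0.07.

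Of the 21 tested sheddase substrates, 10 had a log2 fold change above 0 and 11 below, and the median was -0.02. At an unadjusted p under 0.05, 1 was lower and none higher, beside 6.36% of all genes. Groups did not overlap for 2, both lower in SS (6.4% of all genes). They were Tnfrsf1a and Met, and Met had a log2 fold change of -0.22 (SE 0.10). Tnfrsf1a, a TNF receptor that ADAM17 releases, was at 11.4, 11.4 and 11.6 CPM in Control and 8.49, 5.48 and 7.69 CPM in SS. All SS values were below Control, and the log2 fold change was -0.66 (SE 0.22) with an adjusted p of 0.771 by edgeR. For Tnfrsf1b, the other TNF receptor on the list, the log2 fold change was 0.09 (SE 0.48). Among Notch receptors and ligands, Notch1, Notch2 and Jag1 had log2 fold changes of 0.04, -0.02 and -0.04. Those of Notch3, Notch4 and Jag2, named after their values were seen, were 0.49 (SE 0.27), 0.28 (SE 0.24) and 0.60 (SE 0.31), and those of the other tested ligands, Dll1 and Dll4, were 0.07 and -0.14. None of these 8 genes had an unadjusted p under 0.05.

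In the other lists, calls at an unadjusted p under 0.05 were again single genes. Of 9 tested ADAMTS substrates, Vwf, the von Willebrand factor of endothelial cells, was at 18.5, 6.44 and 9.19 CPM in Control and 22.6, 35.8 and 19.7 CPM in SS, with all SS values above Control and a log2 fold change of 1.20 (SE 0.41). Endothelial markers summed to 50.1 to 78.3 CPM in Control and 56.5 to 110 CPM in SS, and their part in the Vwf values was not tested. Of 6 tested genes of plasminogen activation, Serpine2, an inhibitor of plasminogen activators, was at 39.4, 87.1 and 77.7 CPM in Control and 26.2, 31.1 and 50.6 CPM in SS, with a log2 fold change of -0.92 (SE 0.34). Of 7 tested MMP inhibitors and binding proteins outside the TIMPs, Thbs2, which binds MMP2, was at 307, 573 and 443 CPM in Control and 179, 246 and 375 CPM in SS, with a log2 fold change of -0.73 (SE 0.30). Both overlapped between groups, with most SS tumors low.

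None of the 5 tested proprotein convertases and none of the 4 tested astacin proteases and enhancers had an unadjusted p under 0.05. Furin, which activates pro-MT1-MMP and many ADAMs, was at 197, 192 and 220 CPM in Control and 186, 207 and 185 CPM in SS, with a log2 fold change of -0.07. Reck, a membrane-anchored MMP inhibitor, was at 8.77, 4.52 and 9.32 CPM in Control and 3.63, 9.90 and 4.48 CPM in SS, with overlap. Over the 7 lists, 5 of 60 tested genes had an unadjusted p under 0.05, which is 8.33% against 6.36% of all genes, and none passed adjustment by edgeR.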

How the data were processed

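RNA of 6 tumors (3 Control, 3 SS) was analysed. The authors made stranded mRNA libraries, read them as paired ends of 75 nucleotides and deposited estimated counts per RefSeq transcript, after removing entries with low counts and without normalization, with chromosome, start, stop, strand and symbol. The submitters' processing notes name CASAVA 1.8.1, Bowtie2 2.2.5, STAR 2.5.3a and mm10, without saying which step each served. The counting tool is not given in the sources used here. Stop was read as 1 past the last base, since 54 of 84 member transcripts ended 1 base past the RefSeq end.

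Estimated counts were summed per symbol and rounded. SS was compared with Control by edgeR 4.0.16 under R 4.3.3 (TMM scaling, its filter on low counts, quasi-likelihood test, Benjamini-Hochberg adjustment over 10902 genes). Each SE was taken as the absolute log2 fold change over the root of F. The study used quantile normalization and a t statistic, and edgeR was chosen because the values are counts. Levels per kilobase used median transcript lengths from GENCODE. The 95% intervals and SEs include the spread between tumors, and the 3-count floors cover counting error only. The 15 alternatives were other scalings, DESeq2 1.42.0, quantile normalization with limma 3.58.1, limma-voom, other filters, a replicate block, protein-coding accessions only, and leaving out each tumor. The script was run on simulated data with 200 changed genes.

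The genes named are every Timp, tested members with an unadjusted p under 0.05 or groups that did not overlap, the 5 tested members of highest mean CPM in each family, Adam10, Adam17, and from the lists the genes with an unadjusted p under 0.05 plus Furin, Reck, Notch1, Notch2 and Jag1. Other genes given with values fall outside this rule and were chosen after their values were seen. They include Mmp8, Mmp10, Mmp16, Mmp17, Adgre1, Cdh1, Fap, Pdgfra, Met, Tnfrsf1b, Notch3, Notch4, Jag2, Dll1 and Dll4. Members and lists were chosen with earlier results of these data known.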

Additional observations from a re-analysis of the deposited data

How the results depend on the processing

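No member passed adjustment under any of the 15 alternatives, and over all genes only DESeq2 made adjusted calls (36). DESeq2 gave no adjusted p for 19 of the 43 tested members, among them Mmp12 and Mmp3 of its 6 unadjusted calls. Mmp12 had an unadjusted p under 0.05 in all 15, Adamtsl1 in 14, Adamts10 in 12 and Adamts12 in 9. The count of members at an unadjusted p under 0.05 (4) varied when 1 tumor was left out. It ranged from 1 of 44 tested, without Control 3, to 7 of 45, without SS 2. The share of all genes was 4.58% and 5.58% in these fits. Members whose groups did not overlap (7) numbered between 6 and 9 across the scalings and filters. Log2 fold changes near 0 changed sign. Adam12 was -0.013 by limma-voom. Adamts6 was 0.030 by quantile normalization and limma, 0.020 by limma-voom, 0.00075 with a filter of 1 CPM in 3 tumors, 0.0056 with the replicate block and 0.12 with protein-coding accessions only. Adamts10 was -0.39 with protein-coding accessions only, an alternative chosen after seeing the data. Leaving out 1 tumor at a time gave Adam10 -0.18 to 0.0061, Adam12 -0.13 to 0.21, Adam17 -0.046 to 0.062, Adamts1 -0.39 to 0.20, Adamts2 -0.29 to 0.11, Adamts6 -0.082 to 0.13 and Timp2 -0.065 to 0.10. Timp3 was -0.14 without SS 3, Timp1 0.57 without SS 2, Mmp24 0.41 without Control 1 and Adamts9 -0.21 without SS 1. The cause of these differences was not tested, and members under 1 CPM are limited by depth.

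The replicate numbers are shared between groups, but nothing in the labels says that they pair tumors. The deviations of same-numbered tumors correlated at 0.116, 0.0205 and 0.0767, and 2 of 3 Control tumors and 1 of 3 SS tumors correlated best with their own number. With the replicate block, 643 of all genes had an unadjusted p under 0.05 beside 693, and 4 members did, as without it.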
